A study of Drosophila melanogaster with 9 samples.

Results

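The control cells of a knockdown experiment record what *Drosophila* S2R+ cells transcribe when no fly gene is targeted. These controls were 3 of the 9 RNA-Seq libraries of the series, chosen by their titles, and carried the replicate numbers 1, 2 and 3. S2R+ is an adherent line that grows in culture, and the labels give late embryos as its source and Oregon R as its strain. All 9 cultures grew at 25 °C, took up double-stranded RNA (dsRNA) during 6 h of serum starvation and were collected on day 5 counted from the initial dsRNA. Per the study's methods, this treatment was repeated before the cells were collected. The controls, named lacZ here, were given dsRNA that matches lacZ, a gene of bacteria with no counterpart in the fly. The other 6 libraries received dsRNA against the RNA-binding protein Hrb98DE, with 3 libraries for a first dsRNA (KD1) and 3 for a second (KD2). The lacZ cells had therefore been exposed to dsRNA and serum starvation and were not untouched cells, and a line kept in culture need not match any cell of the animal.

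Hemocytes are the blood cells of the fly. They derive from mesoderm under the GATA factor Serpent, and most are plasmatocytes, macrophage-like cells that engulf microbes and dying cells and lay down basement membrane. Crystal cells and lamellocytes are the other blood cell types, and melanize wounds and encapsulate parasites. Schneider-derived lines such as S2R+ are widely used as hemocyte-like cells, and S2R+ is known for carrying Wnt receptors that its parent line lacks.

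Polyadenylated RNA was sequenced, and the lacZ libraries held 14518288, 15655656 and 13040608 reads assigned to genes for replicates 1, 2 and 3. Levels are given per library in this order. They are in CPM, a gene's reads per 1000000 reads assigned to genes, which compare a gene between libraries. Levels in TPM, which also divide by exon length and are scaled to sum to 1000000, compare genes with each other. A gene with no read in a library can have been present at up to 3 reads, which is 0.2066, 0.1916 and 0.2301 CPM in the 3 libraries and covers counting error only. The targeted gene fitted the labels, with 464.3, 481.4 and 479.0 CPM of Hrb98DE in lacZ and 58.5 to 74.9 CPM in the 6 knockdown libraries. The study's methods describe the knockdowns with each dsRNA as biological replicates, but neither they nor the labels say how the lacZ cultures were kept apart, so tests below measure the spread between these libraries.

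The library lacZ replicate 2 stood apart from the other controls. Of the 501 genes that varied most between the 3 lacZ libraries (an excess variation above 10%, defined below, at 10 CPM or more), replicate 2 was the library farthest from the other pair for 365, against 86 for replicate 1 and 50 for replicate 3. The differences were small in size. No gene at 10 CPM or more differed over 2-fold between any pair of lacZ libraries, and 24, 2 and 16 genes differed over 1.5-fold between replicates 1 and 2, 1 and 3, and 2 and 3. Levels are therefore shown for each library, and counts that depended on replicate 2 are given without it.

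The lacZ cells expressed 7437 of the 17559 annotated genes, or 42.4%, where expressed means a mean of at least 1 CPM. A further 4338 genes had traces of reads under that level, and 5784 genes, or 32.9%, had no read in any of the 3 libraries. Protein-coding genes were expressed more often, with 7044 of 13685 (51.5%) expressed and 3438 (25.1%) without a read. Non-coding RNA genes passed the level in 179 of 2583 cases (6.93%) and pseudogenes in 30 of 269. Without replicate 2 the count of expressed genes was 7463. Of 312 genes of transfer RNA, which lacks a poly(A) tail, 1 was expressed, and the part of the selection of polyadenylated RNA in these shares was not tested.

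Expression was concentrated in few genes. The 10 genes with most reads held 7.92% ± 0.182 (SD, n = 3) of the reads, the 50 highest 19.99% ± 0.351 and the 500 highest 53.42% ± 0.415. Genes above 1000 CPM numbered 145, those above 100 CPM 2103 and those above 10 CPM 6178.

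Expressed coding genes were spread over the chromosome arms. Between 48.7% (2L) and 50.9% (3R) of the coding genes of the autosomal arms were expressed, and 57.6% of those of the X. The small chromosome 4 stood higher, with 68 of its 79 coding genes expressed (86.1%). Its expressed genes had a median of 30.39 TPM, against 33.34 TPM on the X and 37.28 to 46.18 TPM on the other arms. None of the 20 coding genes of the Y was expressed.

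The most abundant transcripts served protein synthesis. The mitochondrial large ribosomal RNA, mt:lrRNA, led with 23298, 13331 and 16431 TPM. Among the 25 coding genes of highest TPM were 22 genes of cytosolic ribosomal proteins, and among the 100 highest there were 72. RpL23 came first of the coding genes at 13317 ± 564.5 TPM (SD, n = 3), and RpL39, RpL21, RpLP2 and RpL41 followed between 11444 and 11982 TPM. The SD of RpLP2, 1471 TPM, was larger than the steps between the last 4, so their order is not resolved.

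Ribosomal protein genes as a group took 17.49%, 17.78% and 17.15% of the reads. Of their 83 genes, 78 were expressed, 2 had traces (RpS5b and RpS10a) and 3 had no read (RpL10Aa, RpS28a and RpL37-2). RpS5b, RpL10Aa, RpS28a and RpL37-2 each have a near copy that was expressed (RpS5a, RpL10Ab, RpS28b and RpL37-1), and RpS10b, the copy of RpS10a, was not analysed here. The median over the 83 genes was 4001 TPM. It was 325.2 TPM over 32 proteasome genes, of which 31 were expressed, and 79.46 TPM over 71 genes of the mitochondrial ribosome, of which 70 were expressed. The machinery of cytosolic translation thus stood at a higher level per gene than that of protein degradation or of mitochondrial translation.

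Outside the ribosomal proteins and the mitochondrial genome, the 3 coding genes of highest TPM among those with a known exon length were Act42A, eEF2 and tsr. Act42A, a cytoplasmic actin, was at 7091, 9124 and 7564 TPM. The elongation factor eEF2 was at 6493, 8021 and 6993 TPM, and tsr (twinstar, the fly cofilin, which severs actin filaments) at 6473, 6492 and 6502 TPM. Replicate 2 was highest for Act42A and eEF2, whereas tsr was level across the libraries.

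Genes of lysosomes, secretion and folding were also abundant. CtsL1, a lysosomal cysteine protease, was at 3876 ± 215.5 TPM, and Lamp1, a lysosomal membrane protein, at 2361 ± 123.4 TPM. SPARC, a collagen-binding protein of the basement membrane made by hemocytes, was at 2777 ± 201.9 TPM. The chaperones of the endoplasmic reticulum Calr and ERp60 were at 1680 ± 59.0 and 1647 ± 42.8 TPM. The cytosolic chaperone Hsp83 was at 3098 ± 247.4 TPM, the histone chaperone Df31 at 3379 ± 107.8 TPM, and blanks, a dsRNA-binding protein known from the male germline and from S2 cells, at 1661 ± 60.33 TPM.

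Further abundant genes could not be named or ranked by TPM. The identifier FBgn0000556 had 12070, 12770 and 12440 CPM, which placed it at rank 2 by reads, but the annotation used here holds no entry for it and no length was available. FBgn0003887, FBgn0002607, FBgn0034967 and FBgn0261606 also lacked an entry, at means of 2720, 2321, 2027 and 1957 CPM. In all, 306 identifiers without an entry held at most 5.201% of the reads of a lacZ library. They are absent from all rankings by TPM and from the gene lists and their shares.

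Most but not all blood cell markers were expressed, and the description of the line as hemocyte-like was compared with them. Of 14 hemocyte genes, 11 were expressed, beside 51.5% of all coding genes. Serpent (srp, 3R:15986152-16004085 on the BDGP6 assembly), the GATA factor that sets hemocyte fate, was at 190.0, 197.4 and 187.0 CPM. Peroxidasin (Pxn, 3L:2601455-2630064), an enzyme of the extracellular matrix made by hemocytes, was at 140.7, 138.5 and 140.7 CPM. Hemolectin (Hml, 3L:13846054-13860001), a clotting protein of plasmatocytes, was at 10.88, 13.03 and 12.27 CPM. The 3 defining markers were thus present in every library, and per length Hml was the lowest, at 1.87 TPM against 42.92 TPM for Pxn and 59.97 TPM for srp. In RNA from a mass of cells, a marker carried by fewer cells and less of it per cell cannot be told apart.

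Other hemocyte genes spanned a wide range. Pvr, the receptor for PDGF- and VEGF-like factors that hemocytes need to survive and migrate, was at 748.1, 749.3 and 772.7 CPM. The Serpent partner u-shaped (ush) was at 384.1, 410.8 and 396.1 CPM, and croquemort (crq), a CD36-type receptor for dying cells, at 412.3, 359.2 and 407.2 CPM. The scavenger receptor Sr-CI was at 57.38, 61.96 and 68.63 CPM. Both collagen IV chains, Col4a1 and vkg, lay between 12.4 and 23.5 CPM.

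Phagocytosis receptors of plasmatocytes were uneven. The gene eater, which binds bacteria, was at 11.09, 12.20 and 11.73 CPM, whereas NimC1 stayed at 0.138, 0.256 and 0.307 CPM, which is 2 to 4 reads a library. The glial cells missing factors gcm and gcm2, which act early in plasmatocyte fate, had no read in any library. He (hemese), a pan-hemocyte surface protein, was at 2.82, 2.17 and 3.53 CPM.

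Markers of the other blood cell classes were mixed. Among crystal cell genes, the Runx factor lz had traces at 0.256 to 0.551 CPM, while the prophenoloxidase PPO2 was at 4.29 to 5.11 CPM and peb (hindsight) at 14.37 to 16.72 CPM. The lamellocyte prophenoloxidase PPO3 was at 47.53, 42.86 and 45.40 CPM, ItgaPS4, an integrin chain of lamellocytes, at 72.46, 68.09 and 72.77 CPM, and mthl4 at 35.75, 32.07 and 37.57 CPM. The lamellocyte surface protein atilla, in contrast, was at 0.207 to 0.256 CPM. Lamellocyte genes were therefore read although atilla, by which these cells are usually recognized, lay near the limit of a library without reads, and crystal cell genes although lz was under 1 CPM.

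Genes of blood progenitors were also expressed. Tep4, a thioester protein that marks progenitors of the lymph gland, the larval blood organ, was at 395.7, 429.8 and 409.6 CPM. The zinc finger factor zfh1 was at 606.9, 629.7 and 580.7 CPM, the JAK/STAT receptor dome at 150.2, 139.8 and 153.0 CPM and E-cadherin (shg) at 44.22, 46.44 and 48.62 CPM. The niche factors kn (collier) and Antp had no read. Marker genes of 13 cell types are plotted by library in the dot plot of marker levels.

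**Figure D1:**
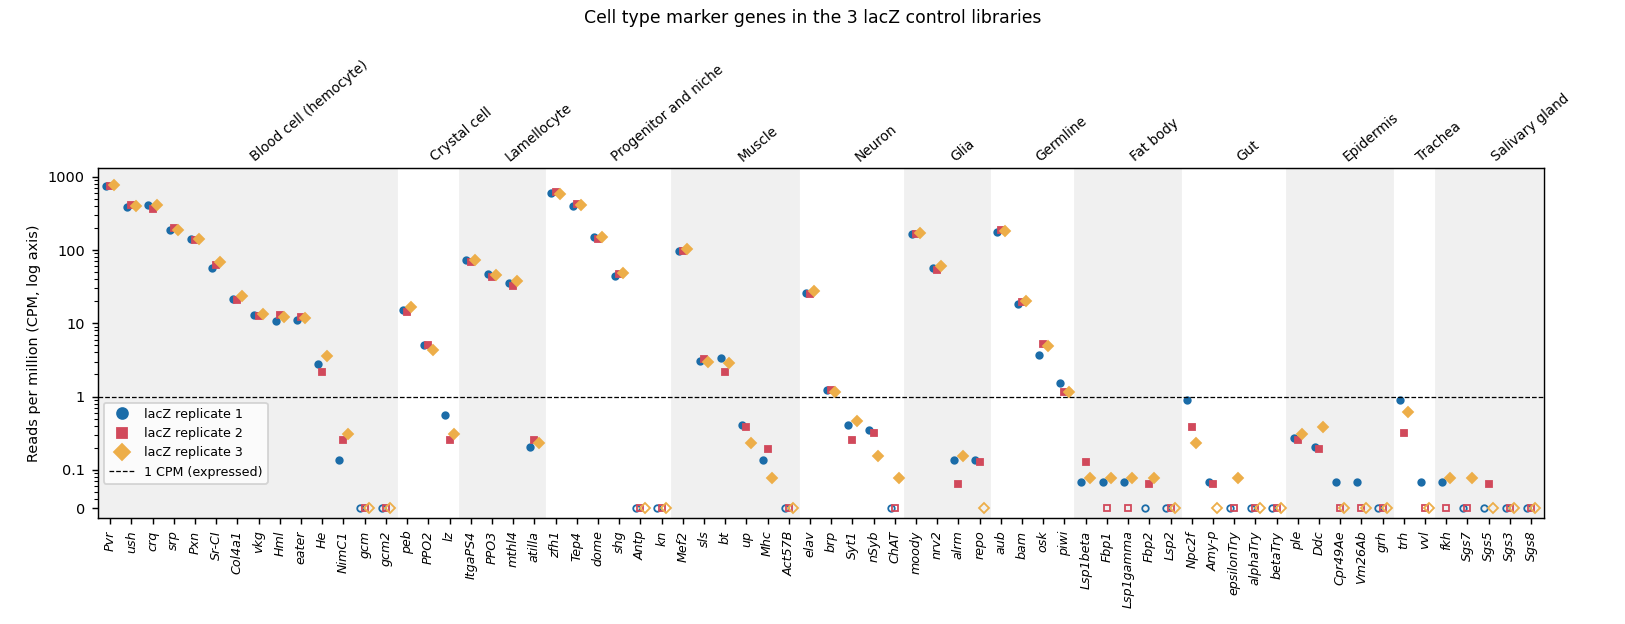
Levels (CPM, log axis, 0 at the bottom) of each cell type marker in lacZ replicates 1, 2 and 3, which are the 3 points of a gene, with markers grouped by cell type and an open symbol where a library had no read. The hemocyte, lamellocyte and progenitor groups hold most of the genes above 10 CPM, while no fat body, gut, epidermis, trachea or salivary gland marker reached the dashed line at 1 CPM.

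Markers of 5 other tissues were not expressed. None of 5 fat body, 5 gut, 5 epidermal, 2 tracheal and 5 salivary gland markers reached 1 CPM, and the largest summed level of any of these lists in a library was 0.964 CPM. Of 6 muscle genes 3 were expressed and of 5 neuronal genes 2. The neurotransmission genes nSyb, Syt1 and ChAT were at or under 0.460 CPM and the muscle genes Mhc and Act57B at or under 0.192 CPM.

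Some tissue markers were exceptions. The muscle and heart factor Mef2, which the fat body also carries, was at 97.19, 96.45 and 103.3 CPM, and the giant sarcomere proteins sls and bt were low, at 3.03, 3.26 and 2.99 CPM and at 3.38, 2.17 and 2.84 CPM. The neuronal RNA-binding protein elav was at 25.83, 24.78 and 27.30 CPM, and brp, a protein of synaptic active zones, at 1.24, 1.21 and 1.15 CPM. The glial receptor moody was at 165.0, 166.6 and 169.9 CPM and nrv2, a subunit of the sodium pump, at 57.51, 53.08 and 60.89 CPM, although the defining glial factor repo had 2, 2 and 0 reads. All 4 germline genes with data were expressed as well. The piRNA protein aub was at 177.5, 189.7 and 181.6 CPM, bam at 18.18 to 19.86 CPM, osk at 3.72 to 5.24 CPM and piwi at 1.15 to 1.51 CPM. Each of these genes passed 1 CPM in all 3 libraries.

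Families that serve taste, smell, vision or cuticle were close to silent. Of 59 odorant receptor genes 2 were expressed and 36 had no read, and of 60 gustatory receptor genes 4 were expressed and 41 had no read. Ionotropic receptors counted 4 of 66, led by Ir76a at 23.76, 25.29 and 26.38 CPM. Odorant-binding proteins counted 1 of 51, Obp18a, at 19.29, 15.59 and 20.32 CPM. None of 7 rhodopsins, 95 cuticle proteins and 16 Jonah gut proteases was expressed. Seminal fluid genes had 1 member of 47 over the line, Sfp26Ad, at 1.79, 0.830 and 0.920 CPM. A pattern for yolk and chorion genes matched 19 genes, and the 2 expressed among them, Cp190 and Cp110, are known as an insulator protein and a centriole protein instead.

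Detoxification families were partly on. Cytochrome P450 genes were expressed in 25 of 78 cases and glutathione S-transferases in 26 of 35. GstE6 was the highest of the latter at 970.7 TPM, with 378.6, 415.4 and 403.0 CPM. Cyp6d4 led the P450 genes at 82.09 TPM, with 82.79, 81.12 and 88.49 CPM. Tetraspanins, small membrane proteins, were expressed in 14 of 34 cases, and Tsp42Ee stood far above the rest at 713.3 TPM. The bar chart of gene families sets these shares beside the share over all coding genes.

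**Figure D2:**
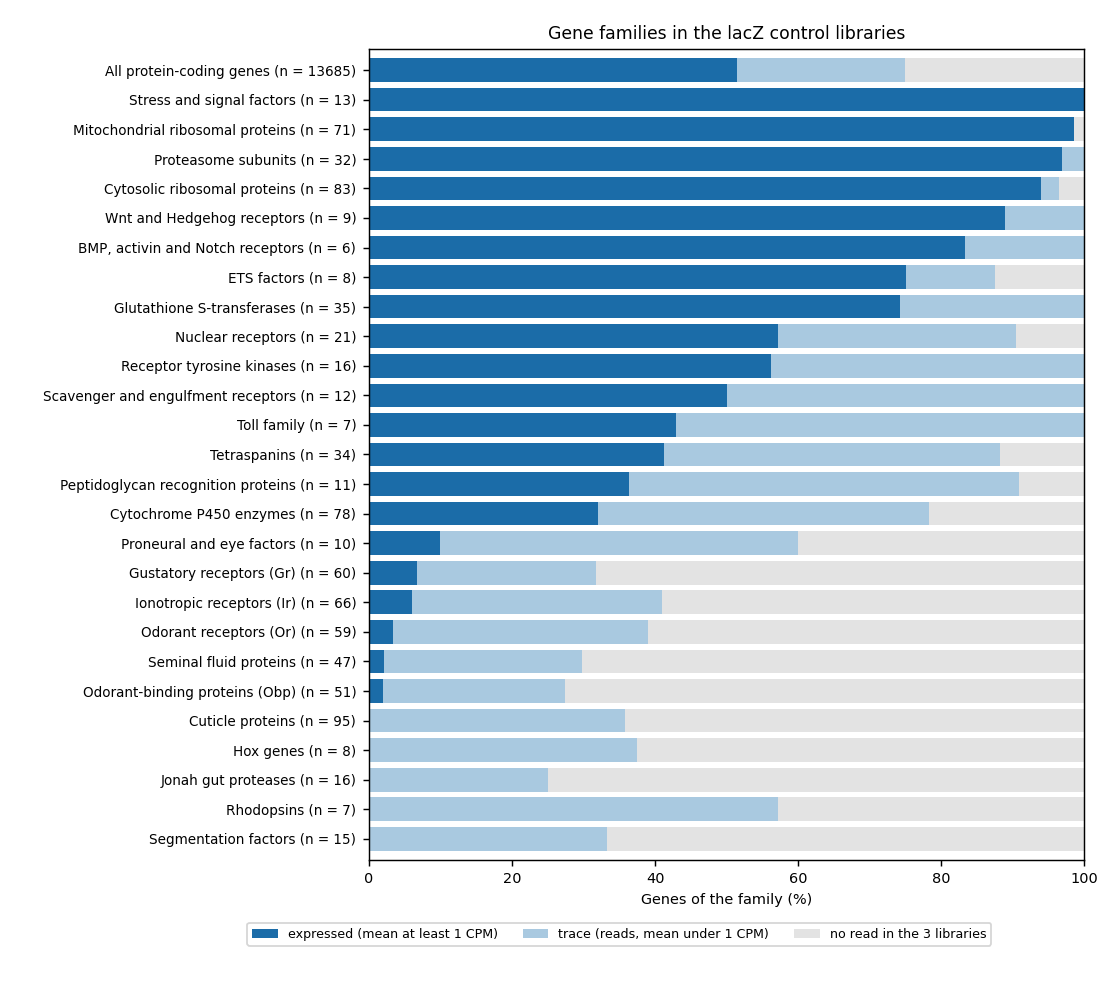
Percent of the genes of each family that were expressed (dark blue), read at trace level (light blue) or without a read (gray) in the lacZ libraries, with the number of genes behind each name and all 13685 protein-coding genes on top. Ribosome, proteasome and signal factor genes fill the bar with dark blue, and chemosensory, cuticle, Hox and segmentation genes are mostly gray.

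Receptors for growth factors were read in part. Of 16 receptor tyrosine kinases 9 were expressed (56.2%) and 7 had traces, which is near the 51.5% of all coding genes expressed. InR and btl, also on the list, were not analysed here. Pvr was the highest at 207.7 TPM, and Eph, the receptor of ephrin, followed at 41.12 TPM with 129.8, 127.9 and 131.1 CPM. The Ryk-type Wnt5 receptor dnt was at 40.16, 42.67 and 47.47 CPM and Ret at 32.79, 31.49 and 36.04 CPM. The receptor of the epidermal growth factor pathway, Egfr, was nearly silent at 4, 1 and 0 reads, as were the fibroblast growth factor receptor htl and Alk with at most 6 reads a library. Among these 16, Pvr exceeded the next receptor 5-fold per length, a gap far beyond the spread between libraries, with 207.7 ± 4.798 TPM for Pvr and 41.12 ± 0.527 TPM for Eph (SD, n = 3).

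Wnt and Hedgehog receptors were on in nearly full sets. Of 9 genes 8 were expressed. The Wnt receptors fz, fz2 and fz4 were at 32.72 to 36.12, 16.67 to 20.09 and 31.43 to 35.12 CPM, and their co-receptor arr at 57.31, 62.98 and 61.96 CPM. For fz3 only 0.413 to 0.958 CPM was read. The Hedgehog receptor ptc was at 144.6, 138.4 and 151.8 CPM, the signal transducer smo at 90.23, 91.15 and 98.15 CPM, and the co-receptors ihog and boi at 29.96 to 31.55 and 31.81 to 40.02 CPM. The exons of smo overlap those of a gene on the opposite strand, CG17078, so part of its reads may belong there if strand was not used in counting.

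The receptors of BMP, activin and Notch signaling followed the same pattern. The type I receptors sax and babo were at 89.38 and 62.97 TPM, and tkv, the main receptor of Decapentaplegic, was lower at 12.47 TPM. The type II receptor put was at 81.14, 81.76 and 87.34 CPM, while wit, the type II receptor of motor neurons, had traces. Notch (N) was at 154.6, 151.6 and 157.5 CPM. In the tumor necrosis factor family, wgn was at 42.91, 42.29 and 47.31 CPM, and grnd had a single read in the 3 libraries together.

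Immune receptors were partly on, with 3 of 7 Toll genes, 4 of 11 peptidoglycan recognition genes and 6 of 12 scavenger and engulfment receptors expressed, beside 51.5% of all coding genes. Toll (Tl) was at 136.7, 120.1 and 140.9 CPM, Tollo at 81.07, 70.07 and 81.97 CPM and Toll-7 at 6.475, 4.535 and 5.598 CPM, and the other 4 Toll genes with data had traces. PGRP-SA, the circulating sensor upstream of Toll, led at 32.15 TPM with 19.22, 15.78 and 18.79 CPM, and PGRP-LC, the membrane sensor of the Imd pathway, had 1.03, 0.575 and 0.690 CPM, just under the line. Engulfment receptors included pes at 265.0, 247.1 and 263.8 CPM, NimC4 (simu) at 83.21, 71.73 and 81.59 CPM and drpr (draper) at 75.90, 71.92 and 80.44 CPM. Crq stood highest of these per length, at 251.9 TPM, and the gap to pes at 122.8 TPM was larger than the spread of either.

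Hormone receptors were on in 12 of 21 cases (57.1%), near the 51.5% of all coding genes. The ecdysone receptor pair EcR and usp was at 47.71 to 53.68 and 78.52 to 79.76 CPM. Hr78 led the list at 68.37 TPM, Hnf4, a regulator of lipid use, was at 34.09 TPM, and Eip75B, an early ecdysone target, was at 63.85, 65.28 and 62.57 CPM. Patterning members of the family, kni and tll, had no read.

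Transcription factors of the embryo's body plan were off. No Hox gene reached 1 CPM, and of the 8 genes 5 had no read while Ubx, abd-A and pb had at most 2 reads in a library. Of 15 segmentation factors 10 had no read, and gt and eve were the highest, at 0.512 and 0.514 TPM, with at most 10 reads a library. All 4 Runx genes lay under 1 CPM. Among 10 proneural and eye factors ey alone passed, at 1.34 to 1.51 CPM.

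GATA and ETS factors were on. Of the 5 GATA genes, pnr (pannier), known from heart and dorsal ectoderm, was the highest at 252.4, 252.2 and 267.6 CPM (107.8 TPM), above srp at 59.97 TPM and GATAd at 43.56 TPM. GATAe, the gut member, was at 4.47 to 5.37 CPM, and grn had a single read. The ETS activator pnt, the target of MAP kinase, was at 538.1, 612.2 and 569.1 CPM and the repressor aop (yan) at 322.2, 363.1 and 327.1 CPM. Replicate 2 was the highest for both ETS genes.

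All 13 factors of stress and signaling were expressed. Xbp1, the factor of the unfolded protein response, was at 707.8 TPM with 858.2, 803.3 and 829.3 CPM, and crc, the fly ATF4, was at 376.4 TPM. The AP-1 pair Jra and kay was at 221.2 and 179.1 TPM, and the NF-kappaB factors Rel and dl at 102.0 and 30.60 TPM. Myc was at 195.6, 192.8 and 187.4 CPM, with exons that overlap the opposite-strand gene CG12535, which itself had few reads. Levels of receptors and factors are shown per length in the dot plot of TPM values.

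**Figure D3:**
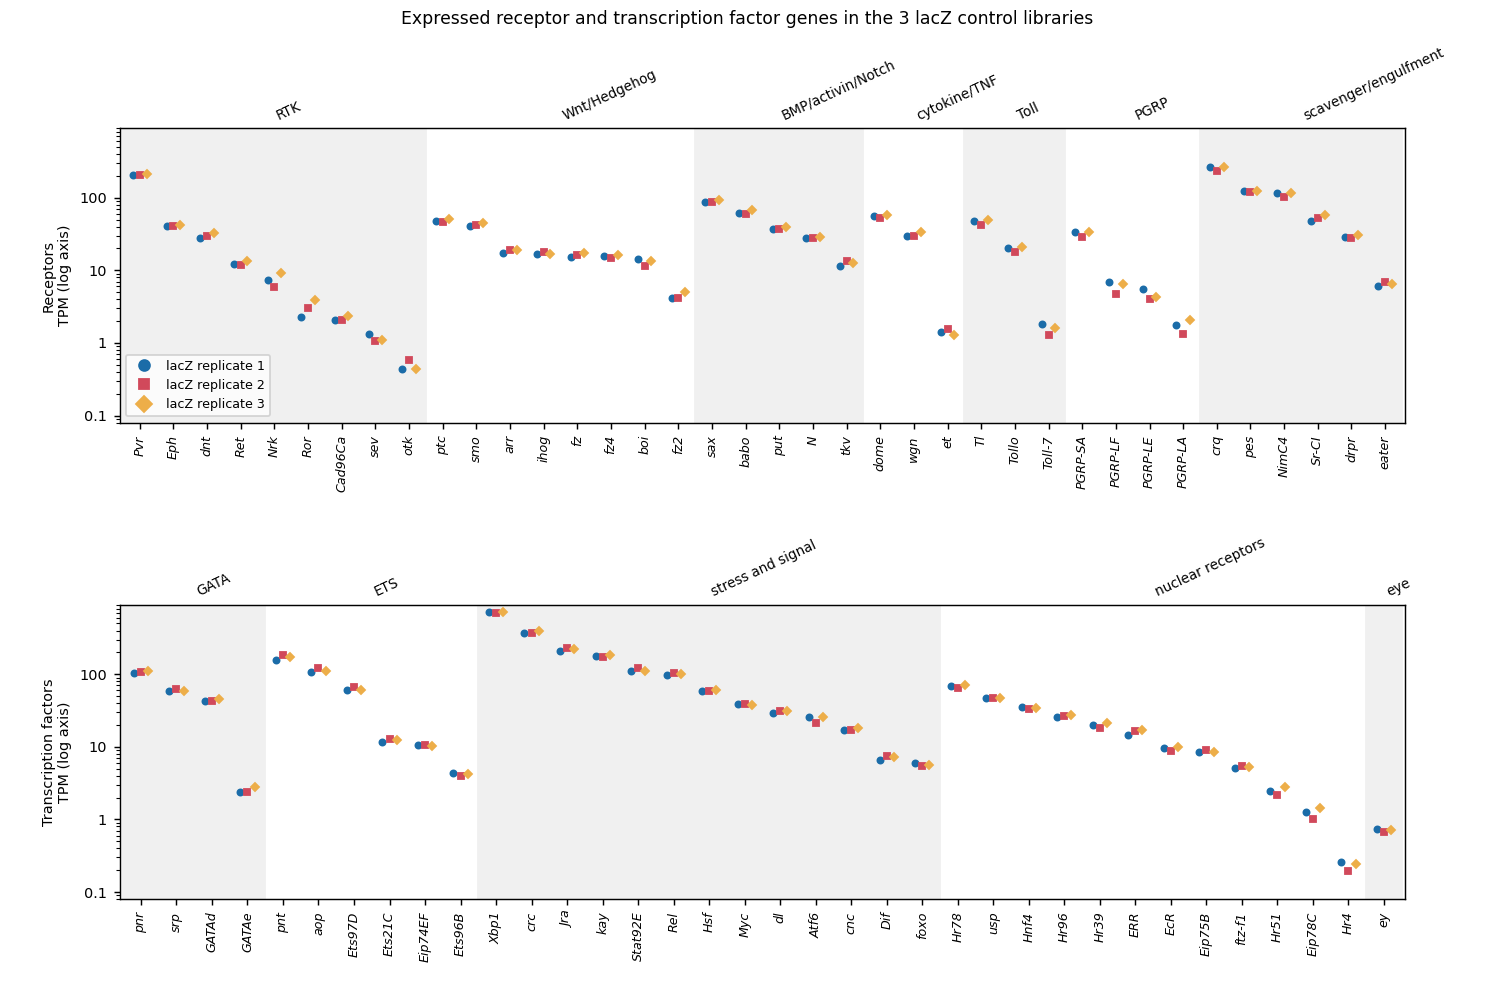
TPM (log axis) of the expressed receptor genes (top) and transcription factor genes (bottom) in lacZ replicates 1, 2 and 3, grouped by family and ordered by mean level within a family. Within most families a single gene leads, such as Pvr at 207.7 TPM, crq at 251.9 TPM and Xbp1 at 707.8 TPM, and the 3 points of a gene lie close together.

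Members of the listed paralog families, from near copies of a gene to proteins that work in different compartments, were used unequally. In 18 of 29 families with all members in the files, a single member held at least 90% of the family's TPM. The dominant member was the same when ranked by CPM in all 29. Per the study's methods, reads with many matching loci were discarded and only the primary alignment of the others was kept. For near-identical copies (actins, alpha-tubulins, histone H3.3, RpS14) the split between members is uncertain.

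Housekeeping families split by copy. Of the 6 actins, Act42A held 78.1%, 80.6% and 78.5% and Act5C 21.9%, 19.4% and 21.5% of the TPM. The 4 actins of muscle summed to under 0.01%, and Act57B and Act88F had no read. alphaTub84B held 93.54% ± 0.159 of the alpha-tubulins, and alphaTub67C, the form of the egg, held 0.0121%. Among cap-binding proteins eIF4E1 held 78.75% ± 1.19, and eIF4E6, at 52.43 TPM, held 15.58% ± 0.976, while eIF4E4 and eIF4E5 had no read. Lam held 92.7% of the lamins against 7.30% for LamC, the lamin of differentiated cells.

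Metabolic enzymes were close to single-copy in use. Ald1, PyK, Pglym78 and Hex-A each held over 99% of their families, at 115.4, 622.6, 248.0 and 126.3 TPM, and testis forms such as Pglym87 and CG12229 had no read. Gapdh1 held 89.45% ± 0.435 and Gapdh2 10.55% ± 0.435. Tm1 held 99.96% of the tropomyosins over Tm2, the muscle form, and sqh, the light chain of non-muscle myosin, held 99.91% over Mlc2.

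Ribosomal proteins with copies were split in 2 ways. RpL22, RpS5a, RpL10Ab, RpL37-1 and RpS28b each held over 99%, and their partners, several known from the germline, were at or under 1.91 TPM. RpS14a held 74.22% ± 0.43 and RpL34b 61.06% ± 1.59, with the partner clearly expressed. RpS19b, known from the germline, was at 53.72 TPM, which was 3.12% ± 0.348 of its pair.

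Families whose members work in different compartments were split in other ways. Hsc70-4 of the cytosol held 63.6%, 67.61% and 63.1%, Hsc70-3 of the endoplasmic reticulum 25.23%, 21.46% and 25.20%, and Hsc70-5 of mitochondria 11.17%, 10.92% and 11.71%. Of the 5 heterochromatin protein 1 genes 4 were expressed, among them HP1b with 16.64% and HP1c with 10.04% of the TPM, and rhi (rhino), a piRNA cluster protein of the germline, with 4.19% ± 0.591 at 27.16 TPM. The ferritin heavy chain Fer1HCH was at 624.1 TPM and the light chain Fer2LCH at 5.43 TPM, while the mitochondrial ferritin Fer3HCH had a single read. Sod1 of the cytosol and Sod2 of mitochondria held 72.24% and 27.75% of the superoxide dismutases, and the extracellular Sod3 had at most 2 reads a library. The stacked bars of paralog shares show all 29 families.

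**Figure D4:**
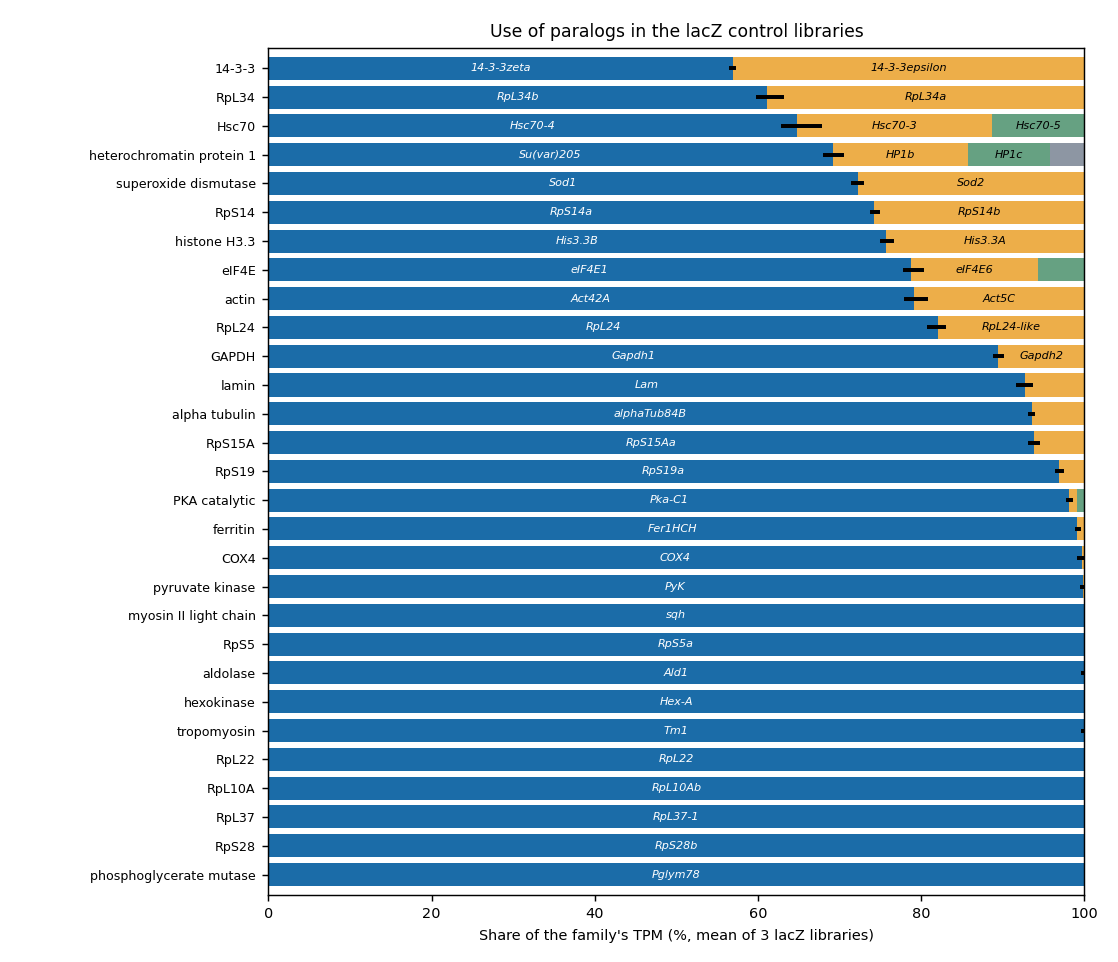
Share of each family's summed TPM (%, mean of the 3 lacZ libraries) held by its members, which are stacked from the largest down, for the 29 families whose members all had data. The black bar marks the range of the leading member's share over lacZ replicates 1, 2 and 3, and 18 families are filled to at least 90% by the leading member.

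Genes that varied between the controls were sought next. A chi-square test of the 3 counts against the libraries' size factors, with Benjamini-Hochberg adjustment over all 7437 expressed genes, called 1936 genes as varying by more than counting noise, which is 26.0%. Without replicate 2 the count was 232, whereas it was 1478 without replicate 1 and 1879 without replicate 3. The same test called 1233 genes among the KD1 libraries (16.8%) and 1949 among the KD2 libraries (26.4%). The share of varying genes in lacZ thus lay between those of the knockdown groups, close to that of KD2.

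The size of the variation was measured as the excess coefficient of variation (excess CV), the SD over the mean after the part due to counting is removed. Over the 6178 genes at 10 CPM or more, its median was 3.298%, and it passed 10% for 501 genes and 20% for 28. The 20 genes of highest excess CV are named in the dot plot of variable genes and ran from 31.31% (CG11378) to 21.19% (axo), with e(y)2 next below at 21.13%. For 14 of the 20, replicate 2 was the library farthest from the other pair, and it was the lowest library for 15.

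Mitochondrial transcripts were 3 of the 20. The mt:lrRNA had 17066, 9595 and 11874 CPM, mt:ND1, a subunit of complex I, 302.2, 169.7 and 207.1 CPM, and mt:ND6, which lies on the other strand, 8.33, 13.54 and 11.27 CPM. Replicate 1 was the highest for the former pair and the lowest for mt:ND6. All transcripts of the mitochondrial genome took 2.892%, 1.766% and 2.185% of the reads, and the 6 knockdown libraries took 1.784% to 2.675%, which overlapped the controls.

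Among the 20, most other genes were low in replicate 2. Over all 501 genes with an excess CV above 10% the directions were close to even, with replicate 2 lowest for 239 and highest for 229. CG11378 had 30.79, 15.84 and 29.60 CPM, and Pura 10.61, 7.54 and 14.80 CPM. The carbonic anhydrase CAH7 had 169.3, 103.5 and 162.6 CPM, and SLC5A11, a sodium-coupled transporter whose exons are shared in part with PGAP5 on the opposite strand, had 38.43, 23.19 and 35.43 CPM. For these genes replicates 1 and 3 lay close together, except Pura, for which all 3 libraries differed.

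Of the 20, 5 were highest in replicate 2. Mybbp1A, a nucleolar protein, had 41.95, 64.77 and 49.61 CPM, Trmt61, a tRNA methyltransferase subunit, 15.29, 21.53 and 14.49 CPM, and CG13185 190.3, 263.2 and 179.1 CPM. CG15784 had 135.8, 201.3 and 149.2 CPM. After scaling by size factors, the highest control was 1.51 to 1.57 times the lowest for these 4 genes.

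Most of these genes were also variable in libraries that had not been used to choose them. Of the 20 genes, 16 exceeded the median excess CV of all genes among the KD1 libraries and 19 among the KD2 libraries, with a median percentile of 97.2 and 99.1. Tg was the exception in both knockdowns, with an excess CV of 0 in each, and CG15211, CG40439 and GstE10 had an excess CV of 0 in KD1.

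The deviations of the controls also moved with exon length. Across the 6178 genes, Spearman's rho between the deviation of a library from the lacZ mean and exon length was -0.257 for replicate 1, 0.186 for replicate 2 and 0.0186 for replicate 3. Long transcripts thus had relatively more reads in replicate 2 and fewer in replicate 1. The part of length in the variation was not tested, and genes are not independent replicates.

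**Figure D5:**
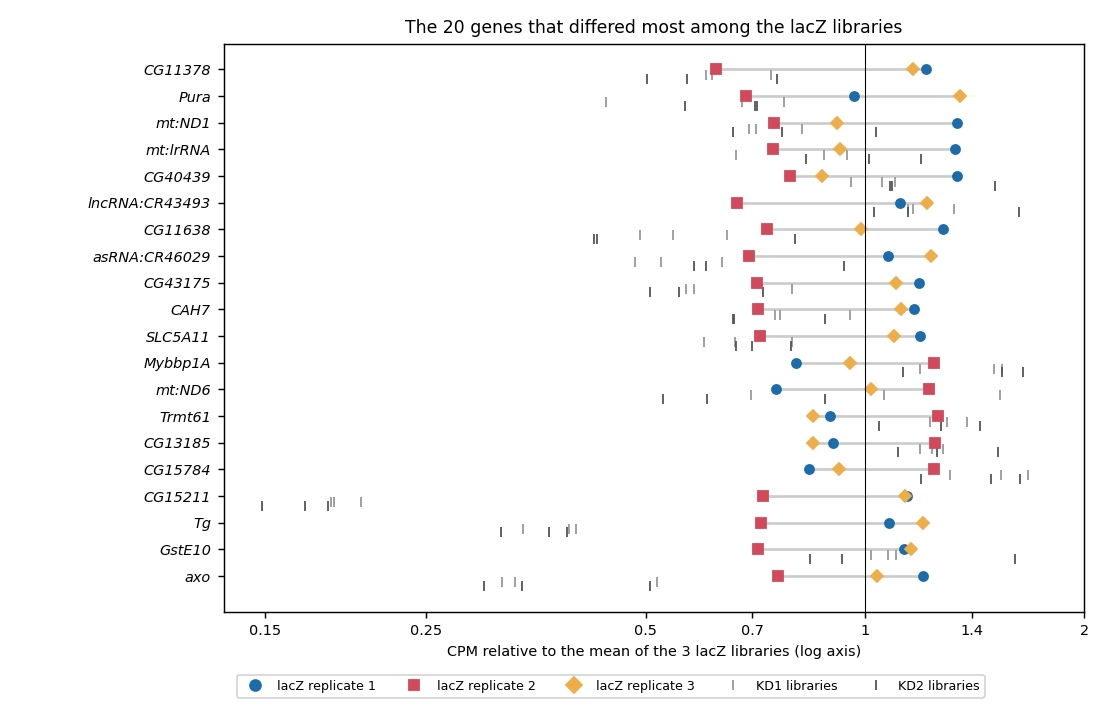
CPM of the 20 most variable genes relative to their mean over the lacZ libraries (log axis), with a colored point for each lacZ replicate and gray ticks for the KD1 and KD2 libraries below. The point of lacZ replicate 2 is the lowest control for 15 of the 20 genes, and the knockdown ticks of CG15211, Tg and axo lie below all 3 controls.

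Some abundant genes hardly varied. Among genes above 1000 CPM, 14-3-3epsilon had 1456, 1442 and 1476 CPM, SREBP, the regulator of lipid synthesis, 1246, 1233 and 1281 CPM, and Akap200 1353, 1341 and 1378 CPM. Their excess CV was 0, so the 3 libraries differed by no more than counting noise. Ribosomal protein genes had a median excess CV of 3.83%, near that of all genes, and 69 of the 78 expressed passed the test of variation, beside 26.0% of all expressed genes. That test finds smaller differences in genes with more reads, and ribosomal protein genes were among the most read. The 2 shares therefore do not show that these genes varied more.

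The control levels were compared with the knockdown libraries to see which of the described genes differed when Hrb98DE was reduced. DESeq2 called genes at an adjusted p-value under 0.05 and a change over 1.3-fold. A gene that was not called is not shown to have stayed at the same level. For KD1 it called 7.37% of 7406 genes (2.24% higher and 5.13% lower), and for KD2 8.13% (2.93% higher and 5.2% lower). The comparisons with KD1 and with KD2 share the lacZ libraries, so they are not independent.

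Of the 11 hemocyte genes tested, 4 were higher in each knockdown, beside 2.24% and 2.93% of all genes tested. Hml had 18.02 to 21.12 CPM in the KD1 and 18.30 to 22.16 CPM in the KD2 libraries, and all 6 lay above the 3 controls, rising on the log2 scale by 0.71 ± 0.13 in KD1 (SE, with an adjusted p of 6.14e-07 by DESeq2) and by 0.73 ± 0.13 in KD2 (adjusted p of 1.54e-07). Sr-CI rose from 57.38 to 68.63 CPM to between 88.32 and 99.93 CPM (log2 fold changes of 0.57 and 0.63). Col4a1 and vkg, the collagen IV chains, rose by log2 fold changes of 0.54 and 0.57, and of 0.46 and 0.44. The median log2 fold change over the 11 genes was 0.05 in KD1 and 0.12 in KD2, and srp, at 176.6 to 211.5 CPM in the knockdown libraries, overlapped the controls.

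The remaining receptors that passed were lower in the knockdowns. Ret, at 19.7 to 22.3 CPM in the 6 knockdown libraries, fell by 0.61 and 0.69 on the log2 scale, with no overlap with the controls. Nrk, a kinase related to the muscle-specific receptor of vertebrates, was at 7.19 to 8.77 CPM and fell by 0.83 and 0.70, and Tollo, at 51.20 to 58.50 CPM, fell by 0.46 and 0.45. The other 6 tested receptor tyrosine kinases did not pass. Of the Wnt and Hedgehog receptors, boi fell in both comparisons (log2 fold changes of -0.41 and -0.43) and fz2 in that with KD1 (-0.38). Without lacZ replicate 1 boi was not called in either, at -0.34 and -0.36, nor in KD1 without KD1 replicate 1, at -0.33. The call of fz2 was lost without lacZ replicate 3 (-0.31) and without KD1 replicates 1 and 4 in turn (-0.38 in each). EcR fell in KD1 by 0.53 on the log2 scale. Hr51 and Eip78C, both under 5 CPM, were lower in both knockdowns, with log2 fold changes of -1.22 and -0.87 for Hr51 and of -0.73 and -0.77 for Eip78C. Their calls for KD2, and that of Eip78C for KD1, were lost when lacZ replicate 1 or lacZ replicate 3 was left out, with values between -0.87 and -0.62, and also without single knockdown libraries (KD2 replicates 2 and 4 for Hr51, and KD1 replicates 1 and 4 and KD2 replicates 1 and 4 for Eip78C).

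The glial gene nrv2 fell by 0.44 and 0.50 on the log2 scale, while moody did not pass. The median log2 fold change was 0.05 and 0.07 over the 13 stress and signal factors, 0.08 and 0.17 over the 6 ETS factors, and -0.18 and -0.13 over the 5 receptors of BMP, activin and Notch, for KD1 and KD2.

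Of the 20 variable genes, 8 were called in KD1 (6 lower and 2 higher) and 7 in KD2 (6 lower and 1 higher), beside 7.37% and 8.13% of all genes tested. The 20 genes were chosen by their spread in the lacZ libraries that also enter both comparisons. Their calls are therefore not independent of that choice, and no excess over all genes is read from them. CG15211 had 59.03, 37.37 and 58.59 CPM in lacZ and 7.68 to 10.50 CPM in the 6 knockdown libraries, with log2 fold changes of -2.35 ± 0.15 (SE) and -2.54 ± 0.15. Tg, a transglutaminase that cross-links clots, had 11.78, 7.86 and 13.11 CPM in lacZ and 3.45 to 4.38 CPM in the knockdowns. The adhesion protein axo (axotactin) had 52.35, 33.09 and 45.17 CPM against 13.06 to 22.55 CPM. For each of these 3 genes replicate 2 was the control nearest to the knockdown libraries, and all 6 of those libraries stayed below it. The other genes called (Pura, asRNA:CR46029, SLC5A11, Trmt61, CG15784 and CG43175) each lost a call when some single library, lacZ replicate 1 among them for every one, was left out. Among the rest, CG11378 was called in neither comparison with all 3 controls (adjusted p = 0.14 and 0.071 by DESeq2) but in both without replicate 2, with log2 fold changes of -0.82 and -0.92.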

How the data were processed

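Counts were used as the authors deposited them, as whole reads per gene for each of 9 libraries of polyadenylated RNA made from 500 ng of total RNA with 11 PCR cycles. The submitters' processing notes list the genome build BDGP6, bcl2fastq 1.8.4, STAR 2.5.1b, SAMtools 1.2 and Subread 1.4.6-p2 with featureCounts. The strand setting of the counting is not given in the sources used here, so genes that share exon sequence with a gene on the other strand, and near-identical copies, are uncertain. Per the study's methods, reads with many matching loci were discarded at alignment and the primary alignment of the others was kept, so a read that fits several copies may be placed at any of them.

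Of 17559 identifiers, 98.26% were named. TPM used the summed exon length of each gene from Ensembl release 115 on BDGP6, which 306 identifiers lack. Expressed meant a mean of at least 1 CPM over the 3 lacZ libraries, trace a lower mean with at least 1 read, and no read 0 in all 3. Variation was tested by chi-square with 2 degrees of freedom (scipy 1.17.1) on counts scaled by DESeq2 size factors, with Benjamini-Hochberg adjustment. Knockdowns were compared with lacZ in DESeq2 1.42.0 (R 4.3.3) on all 9 libraries for genes with a mean above 1 CPM, and a call needed an adjusted p under 0.05 and a change over 1.3-fold. edgeR 4.0.16 was an alternative, beside other scalings, filters, a block on replicate number and leaving out each library. The DESeq2 comparison and the chi-square test of variation were tried on simulated counts.

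Genes named were the members of marker, family and paralog lists, the 25 of highest TPM and the 20 of highest excess CV at 10 CPM or more. All members and lists were chosen with earlier results of these data known. The list paired RpL37-2 with another protein, and RpL37-1 took its place after the data were seen. The lists behind the closing observations were also chosen after results were seen. List members whose name the annotation used here did not match to an identifier are not analysed here, although the files may hold them under an identifier without an entry. Motif searches in promoters were not run.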

Additional observations from a re-analysis of the deposited data

How the results depend on the processing

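Of 17559 genes, between 6615 (mean of at least 5 CPM) and 7913 (at least 0.5 CPM) counted as expressed, with 7437 at 1 CPM. The 50 most abundant genes held 16.92% of reads when ranked by TPM, against 19.99% when ranked by CPM. Ranking by CPM kept 11 of the 25 most abundant genes. The number of genes varying beyond counting noise, 1936 with all controls, ranged from 232 to 1879 when a lacZ library was left out, and the lowest was without replicate 2. Of the 20 most variable genes, 12 remained with a floor of 5 CPM, 7 with a floor of 50 CPM and 17 with scaling by total counts. The calls, 546 in KD1 and 602 in KD2, ranged from 403 to 623 and from 445 to 703 when a library was left out, and edgeR called 584 and 661. With a replicate block they were 322 and 344. Deviations of same-numbered libraries had a mean correlation of -0.061 over 6 pairs, against 0.017 over 21 other pairs. No deviation shared by replicate number was thus seen, but 6 pairs that share libraries cannot exclude a paired design. Over 282 results for single genes no direction turned under any alternative. Calls were lost for 17 with the replicate block, 15 without lacZ replicate 1 and 12 without lacZ replicate 3, and 18 were gained without lacZ replicate 2. The cause was not tested.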

Other observations

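Listed genes of small RNA pathways were all expressed in the lacZ cells, 14 of 14, beside 51.5% of all coding genes. The list joins the small interfering RNA pathway, which the dsRNA treatment uses, with genes of the microRNA and piRNA pathways. AGO2, the slicer of the small interfering RNA pathway, was at 673.1, 774.5 and 692.0 CPM, and Dcr-2, which cuts dsRNA, at 177.1, 195.5 and 185.7 CPM. In TPM, AGO2 at 314.4 exceeded AGO1, the Argonaute of microRNAs, at 40.79. The piRNA proteins were uneven, since aub was at 110.8 TPM, AGO3 at 10.05 TPM and piwi at 0.755 TPM. No untreated cells were among the libraries, so the levels without dsRNA are not known from these data.

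Secreted ligands were expressed in 12 of 23 cases, beside 51.5% of all coding genes, and several matched receptors read in the same libraries. The tumor necrosis factor egr was at 496.5, 416.8 and 502.8 CPM, with wgn as the only clearly read receptor of its family and grnd at a single read. The epidermal growth factor ligand spi was at 319.8, 332.8 and 348.8 CPM while Egfr was nearly silent. For Pvr, the ligands Pvf2 at 169.4, 136.5 and 165.8 CPM and Pvf3 at 41.60, 31.23 and 43.33 CPM were read, and Pvf1 had at most 1 read a library. The BMP ligand gbb was at 132.9, 121.6 and 130.1 CPM and dpp at 0.276 to 0.383 CPM. The ligand hh was at most at 0.192 CPM, although the Hedgehog receptor ptc was read. Wnt5 was at 40.09, 34.49 and 41.64 CPM, beside its receptor dnt. The related receptors drl, at 0.192 to 0.230 CPM, and Drl-2, at or under 0.0767 CPM, had only traces. Wnt2, Wnt4 and Wnt6 were at or under 0.1534 CPM. The Toll ligand spz was at 207.0, 212.3 and 217.8 CPM. For the JAK/STAT receptor dome, upd2 was at 7.218 to 9.739 CPM and upd3 at 12.95 to 16.18 CPM, and upd1 at or under 0.1534 CPM.

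Genes of dosage compensation and sex were expressed in 8 of 9 cases, beside 51.5% of all coding genes. The male-specific dosage compensation gene msl-2 was at 47.46, 42.22 and 47.93 CPM, and mle at 104.4, 103.3 and 103.3 CPM. The sex determination genes Sxl and tra were also expressed, at 8.748, 6.643 and 7.745 CPM and at 18.39, 21.46 and 17.56 CPM. The gene dsx was under 0.1 CPM in each library, and roX1 and roX2, also on the list, were not analysed here. Counts per gene do not separate splice forms, so the sex of the cells cannot be read from these levels and was not tested. Of 9 clock genes 5 were expressed, namely cwo at 114.3, 114.4 and 114.0 CPM, vri at 83.07 to 88.34 CPM, Pdp1 at 50.97 to 56.90 CPM, cyc at 52.76 to 60.82 CPM and jet at 7.79 to 8.59 CPM. The other 4 were per, at 0.447 to 0.767 CPM, tim and Clk, both under 0.4 CPM, and cry, with no read. Of 13 antimicrobial peptide genes 4 were expressed, the highest being CecC at 2.96, 4.22 and 2.22 CPM, and AttC, Def and Mtk had no read. The cell death inhibitor Diap1 was at 273.2, 281.0 and 284.0 CPM, and its antagonists rpr and hid were at 9.71 to 13.42 and 12.26 to 15.87 CPM. All 14 cell cycle genes were expressed, led by the cyclin CycB at 408.9, 440.6 and 405.4 CPM.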
